A study of Homo sapiens with 2 samples.

Results

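Among the 6373 deposited peaks of a Flag ChIP-seq experiment, 436 were at least 1500 bp wide, and these wide peaks are described here against the 5937 narrower ones. The members were chosen by width alone, as end minus start plus 1 in the deposited list. The experiment used PLC/PRF/5 cells, a human line grown from a liver cancer, made to overexpress ZFP64 with a lentivirus. The tested library came from chromatin precipitated with a Flag antibody (the Flag ChIP, 1 library), and the other from the same overexpressing cells without precipitation (the input, 1 library). Both carried the overexpression, neither had a replicate, and no Flag ChIP of cells lacking the tag was analysed here. A peak therefore cannot be told apart from nonspecific signal of the antibody. The fold, p-value and q-value of a peak are the authors' own and come from the same contrast as its width, so they are given as descriptions, with no test. Intervals in parentheses are exact 95% intervals and cover counting error only.

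ZFP64 is a C2H2 zinc finger protein, a class of factors that contact DNA through repeated zinc-binding fingers, and it is known from leukaemia cells to occupy the promoter of KMT2A, a histone H3 lysine 4 methyltransferase gene. Most human promoters of broadly used and developmental genes lie in CpG islands, stretches rich in CG dinucleotides that are usually free of DNA methylation. A peak caller reports 1 region for each continuous stretch of signal over its background, so the width of a peak depends on how high its signal rises and on how far it extends.

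Promoters at the starts that the widest and highest of the wide peaks overlapped are shown for their sequence. The RefSeq promoter (GRCh38.p14, 250 bases before to 50 after the start, 5′ to 3′ on the gene's strand) is given for 6 protein-coding genes, in order of peak width. They were taken from the 10 widest wide peaks and the 10 of highest fold, where the peak overlapped the start. The peak covered all 300 bases shown for 5 of them, but only 110 of the 300 for ADGRL2. Capitals mark the GC box, GGGCGG or its reverse complement CCGCCC, the recognition element of SP and KLF factors.
CPEB2, chr4:15002231-15002530, + strand: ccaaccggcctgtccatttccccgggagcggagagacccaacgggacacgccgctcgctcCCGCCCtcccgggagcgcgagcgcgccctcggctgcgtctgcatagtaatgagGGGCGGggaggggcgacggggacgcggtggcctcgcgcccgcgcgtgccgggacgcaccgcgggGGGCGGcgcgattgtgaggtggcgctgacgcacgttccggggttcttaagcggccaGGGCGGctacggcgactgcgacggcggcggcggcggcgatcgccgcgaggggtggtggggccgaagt
LRP2, chr2:169362485-169362784, - strand: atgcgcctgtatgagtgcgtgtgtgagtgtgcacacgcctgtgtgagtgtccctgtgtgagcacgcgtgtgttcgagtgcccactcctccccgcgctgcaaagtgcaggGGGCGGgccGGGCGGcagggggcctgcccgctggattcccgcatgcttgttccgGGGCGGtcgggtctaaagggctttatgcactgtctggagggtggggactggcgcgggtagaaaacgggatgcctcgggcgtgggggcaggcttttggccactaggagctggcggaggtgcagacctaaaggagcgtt
LRP5, chr11:68312341-68312640, + strand: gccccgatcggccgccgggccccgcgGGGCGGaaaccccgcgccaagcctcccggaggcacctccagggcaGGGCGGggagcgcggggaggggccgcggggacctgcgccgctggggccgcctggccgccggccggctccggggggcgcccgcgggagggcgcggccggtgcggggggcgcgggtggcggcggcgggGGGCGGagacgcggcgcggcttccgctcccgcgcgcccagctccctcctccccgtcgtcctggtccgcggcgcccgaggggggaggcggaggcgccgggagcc
ADGRL2, chr1:81800126-81800425, + strand: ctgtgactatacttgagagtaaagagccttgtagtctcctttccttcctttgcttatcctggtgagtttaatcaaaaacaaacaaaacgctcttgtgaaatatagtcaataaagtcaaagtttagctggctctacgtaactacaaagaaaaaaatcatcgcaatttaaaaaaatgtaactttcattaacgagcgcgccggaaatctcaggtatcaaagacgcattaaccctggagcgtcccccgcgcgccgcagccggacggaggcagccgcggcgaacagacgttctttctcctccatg
KMT2A, chr11:118436242-118436541, + strand: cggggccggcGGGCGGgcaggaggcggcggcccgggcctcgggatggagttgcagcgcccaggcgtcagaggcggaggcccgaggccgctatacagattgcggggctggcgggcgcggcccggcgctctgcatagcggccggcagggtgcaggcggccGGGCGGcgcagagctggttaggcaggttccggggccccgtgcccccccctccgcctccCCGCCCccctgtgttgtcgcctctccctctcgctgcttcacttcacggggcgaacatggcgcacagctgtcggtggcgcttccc
APBA2, chr15:28885724-28886023, + strand: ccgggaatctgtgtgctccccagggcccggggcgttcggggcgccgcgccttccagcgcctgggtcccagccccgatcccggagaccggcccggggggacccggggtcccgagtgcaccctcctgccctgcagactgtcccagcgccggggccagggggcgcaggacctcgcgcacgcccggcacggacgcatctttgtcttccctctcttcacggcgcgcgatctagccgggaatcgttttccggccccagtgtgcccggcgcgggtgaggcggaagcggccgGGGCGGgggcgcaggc

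These promoters differed widely in composition. The LRP5 promoter was 86.7% G and C with 52 CpG dinucleotides and 3 GC boxes, while the ADGRL2 promoter, most of which lay outside its peak, was 44.7% G and C with 19 CpG dinucleotides and 0 GC boxes. CPEB2 had 51 CpG dinucleotides and 4 GC boxes, KMT2A 36 and 3, APBA2 38 and 1, and LRP2 23 and 3. In 4 of the 6 the summit, the position of highest signal, lay near the printed start. It was 131 bp downstream of it at CPEB2, 129 bp downstream at APBA2, at position -93 from it, on the upstream side, at LRP2 and at position -158 at KMT2A. At LRP5 and ADGRL2 the peak covered the start, but its summit lay 2135 and 2378 bp downstream, outside the bases shown.

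Wide peaks made up 6.84% of the list and 19.7% of the bases it covered, 843 of 4286 kb. Their median width was 1822.5 bp (quartiles 1647 to 2107, range 1501 to 3796), against 483 bp (353 to 725, range 263 to 1497) for narrower peaks. Of the 436, 289 were under 2000 bp wide and 12 reached 3000 bp. Just inside the threshold lay SDK2 (1501 bp, fold 28.1) and B4GALT6 (1504 bp, fold 12.1), and just outside it FOXD1 (1497 bp, fold 16.6) and HNRNPAB (1496 bp, fold 9.35). The threshold thus divides neighbours of like width, and no gap in the widths sets the wide peaks apart.

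Wide peaks had high folds. The median fold was 21.6 (quartiles 13.0 to 35.9) for wide peaks and 6.29 (4.85 to 9.66) for narrower ones. Folds of 10 or more belonged to 377 wide peaks (86.5%) and 1381 narrower ones (23.3%), where the whole list had 27.6%. A q-value deposited as 0, the smallest in the list, belonged to 44 wide peaks (10.1%) and 24 narrower ones (0.404%), or 1.07% of the list. From the other side, 0.175% of peaks with a fold under 5 were wide, 1.93% of those from 5 to 10, 12.6% from 10 to 20, 31.4% from 20 to 50, and 60.4% from 50 to 100. Above 100, a range that holds 0.361% of the list, 11 of 23 peaks were wide. Across the 436 wide peaks, all from the same 2 libraries, width and fold had a Spearman's rho of 0.261. Choosing peaks by width cuts the range of one of these values, so this rho cannot be set against that of narrower peaks.

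**Figure D1:**
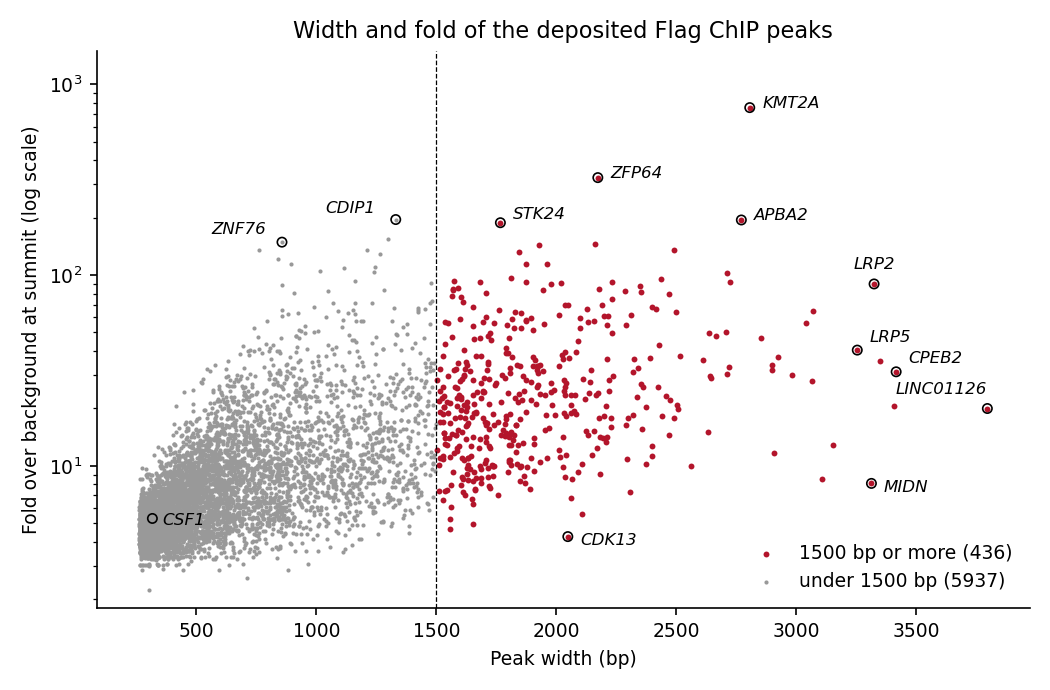
Each point is 1 deposited peak, with its width in bp on the x axis and the authors' fold over background at its summit on a log y axis. Red points are the 436 peaks of at least 1500 bp (dashed line) and grey points the 5937 narrower peaks. KMT2A, at 2806 bp and a fold of 755, stands above all others, while the widest peak, at LINC01126, has a fold of 19.97.

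The counts behind these folds were recovered from the deposited fold and p-value. At the summit, wide peaks had a median of 59 ChIP fragments (quartiles 40 to 92, lowest 17), against 19 (14 to 28, lowest 8) for narrower peaks. This covers 379 of the 436 wide and 5910 of the 5937 narrower peaks. The other 57 wide peaks had p-values deposited as 0 or too small to solve. The background at the summit differed little, with a median of 2.25 expected fragments under wide peaks and 1.99 under narrower ones.

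The widest peak, 3796 bp on chromosome 2 from 43224291 to 43228086 (hg38, as all positions of peaks here), was assigned to LINC01126, a long noncoding RNA gene. Its fold was 19.97, from 53 fragments (39.7 to 69.3) over a background of 1.70, and it ranked 643 by fold among the 6373 peaks. CPEB2, which encodes a regulator of mRNA translation, had the second (chromosome 4, 15001798 to 15005213, 3416 bp), and its fold was 31.1. The third, 3408 bp with a fold of 20.7, was assigned to the noncoding gene MGC12916. The remaining peaks among the 10 widest had folds from 8.08 to 89.8. LRP2, the endocytic receptor megalin, had the highest of these (89.8, 3324 bp), and LRP5, a Wnt co-receptor, had 40.4 over 3254 bp. ADGRL2, an adhesion receptor gene, reached 12.8 over 3153 bp. MIDN (3313 bp, fold 8.08) and GATA2-AS1 (3109 bp, fold 8.50), an antisense RNA gene beside the transcription factor gene GATA2, were wide but low. They held 23 (14.6 to 34.5) and 20 (12.2 to 30.9) fragments at the summit, less than the median of 59.

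The 10 highest folds among wide peaks came with widths from 1767 to 2806 bp, so none of them was among the 10 widest. KMT2A, on chromosome 11 from 118434962 to 118437767 (2806 bp), ranked 19 by width, and ZFP64, on chromosome 20 from 52190492 to 52192664 (2173 bp, fold 324), ranked 93. APBA2, which encodes a neuronal adaptor protein, had a fold of 194 over 2771 bp, and PRPSAP1 135 over 2491 bp. STK24, which encodes a kinase related to the Hippo kinases, had a fold of 188 over 1767 bp, and SYNE2, which encodes a nuclear envelope protein, 145 over 2162 bp. Next to these stood narrower peaks of equal fold, at CDIP1 (195, 1331 bp), SP9 (154, 1297 bp) and ZNF76 (149, 857 bp). At the low end, the 3 wide peaks of lowest fold were at CDK13, a kinase of transcription elongation (4.25, 2048 bp), GLUL, which encodes glutamine synthetase (4.67, 1555 bp), and SYDE2 (4.94, 1652 bp). CSF1 and PRKCA, the other genes in the title of the series, had no wide peak. CSF1, the macrophage growth factor gene, had a peak of 317 bp with a fold of 5.30. PRKCA, the gene of protein kinase C alpha, had one of 711 bp with a fold of 2.58. By fold they ranked 4303 and 6372 among the 6373 peaks.

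Wide peaks lay almost wholly at promoters. Of the 436, 424 (97.2%, 95.2 to 98.6) were annotated within 3 kb of a transcription start, 418 of them within 1 kb, against 4481 of the 5937 narrower peaks (75.5%, 74.4 to 76.6). Introns held 2 wide peaks (0.459%, 0.0556 to 1.65) and 664 narrower ones (11.2%, 10.4 to 12.01). Distal intergenic regions held 7 wide peaks (1.61%, 0.648 to 3.28) and 620 narrower ones (10.4%, 9.68 to 11.2). Exons held the last 3 wide peaks. To lessen the difference in height, the shares were also taken among peaks with a fold of at least 10. Height was not held equal there, as the median fold was 24.3 for wide and 14.7 for narrower peaks. There 366 of 377 wide peaks (97.1%, 94.8 to 98.5) and 1178 of 1381 narrower ones (85.3%, 83.3 to 87.1) were at promoters, a smaller gap whose intervals still did not overlap. Distance was taken from the edge of a peak, so a wide peak enters the promoter class more readily by its size alone. Summits were within 1 kb of the start in 83.3% (79.1 to 86.9) of wide peaks with a fold of at least 10. For narrower peaks of such fold the share was 79.2% (77.0 to 81.3), and these intervals overlap. Peaks are not replicates, and no test was made of these shares.

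**Figure D2:**
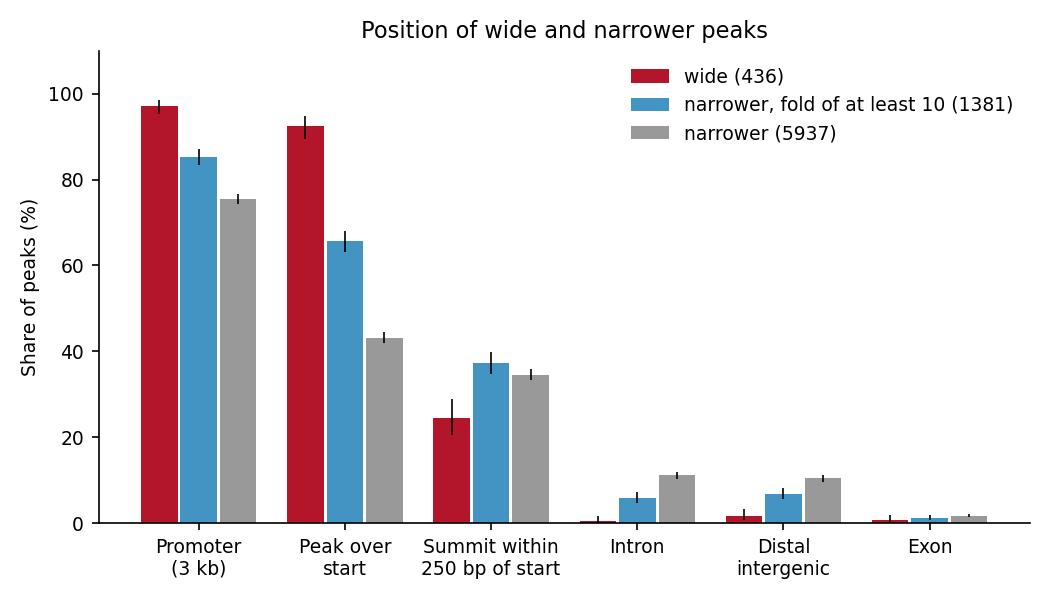
Bars give the share of peaks in percent for the 436 wide peaks (red), the 1381 narrower peaks with a fold of at least 10 (blue) and all 5937 narrower peaks (grey), with exact 95% binomial intervals. Wide peaks lead in the promoter class (97.2%) and in overlap with a start (92.4%), but not in summits within 250 bp of the start (24.5%).

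The assigned start lay under 403 wide peaks (92.4%, 89.5 to 94.7) and 2566 narrower ones (43.2%, 42.0 to 44.5). A wide peak meets a nearby start more readily by its size alone, so summits were measured too. By that measure wide peaks were less centred on starts. Their summits lay within 250 bp of the start in 24.5% (20.6 to 28.9), against 34.6% (33.4 to 35.8) of narrower peaks and 37.2% (34.7 to 39.8) of narrower peaks with a fold of at least 10. Among promoter peaks alone, the median distance from summit to start was 476 bp for wide, 274 bp for narrower and 284 bp for narrower peaks of fold at least 10. It was 385 bp for widths from 1000 bp and 593 bp for widths from 2000 bp. A summit has more room inside a wide peak, so summit distance is not free of width either. Within 1 kb of the start lay 82.8% (78.9 to 86.2) of wide and 67.6% (66.4 to 68.8) of narrower summits. For narrower peaks with a fold of at least 10 this share was 79.2% (77.0 to 81.3), an interval that overlaps that of wide peaks.

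Over the start, wide peaks extended on both sides and further into the gene. The 403 that overlapped a start covered a median of 690 bp upstream (quartiles 374.5 to 988.5) and 1187 bp downstream (865.5 to 1500). In 284 of them (70.5%, 65.8 to 74.9) the downstream part was the longer. Narrower peaks over a start covered 164 bp upstream and 436 bp downstream, and the downstream part was the longer in 72.8% (71.0 to 74.5), an interval that overlaps that of wide peaks. At 1000 bp downstream of the start 65.3% of these wide peaks still had signal, and at 1000 bp upstream 24.1% had. Wide peaks were chosen by width, so their longer total cover around the start follows from that choice and is no separate result.

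**Figure D3:**
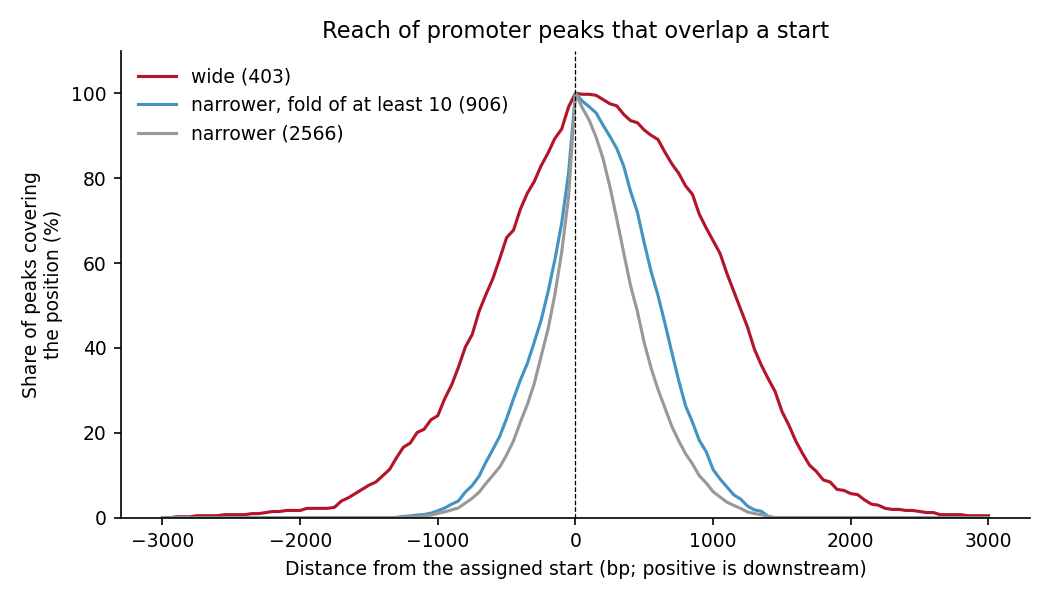
For promoter peaks that overlap their assigned start, the line gives the share of peaks in percent that cover each distance from the start in bp, with positive distances inside the gene. The 403 wide peaks (red) reach further on both sides than the 906 narrower peaks with a fold of at least 10 (blue) and all 2566 narrower ones (grey), and all 3 lines fall more slowly downstream than upstream. The longer total reach of wide peaks follows from their choice by width.

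Starts of protein-coding genes in the RefSeq promoter table gave a second view of 421 wide peaks. The table covers no chromosome 8 and has no entry for some coding genes on other chromosomes. Shares of peaks with a coding start, here and below, can therefore be too low. A coding start lay within 1 kb of the summit in 300 of them (71.3%, 66.7 to 75.5), against 53.5% (52.2 to 54.8) of narrower peaks and 66.1% (63.5 to 68.6) of those with a fold of at least 10. Divergent promoters, where genes start on both strands within 1 kb of the summit, were found at 16 wide peaks (3.8%, 2.19 to 6.10), against 5.30% (4.74 to 5.92) of narrower ones. Another peak lay within 5 kb of 63 of the 436 (14.4%, 11.3 to 18.1) and of 17.8% (16.8 to 18.8) of narrower peaks. BAHCC1 was the one gene with 2 wide peaks, 989 bp apart on chromosome 17 (fold 114 over 1963 bp, and fold 27.3 over 1688 bp). The next closest pair of wide peaks, at NACC2 and TMEM250, was 21442 bp apart.

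Outside promoters, 12 wide peaks were left. The widest, 2983 bp with a fold of 29.8, lay in an exon on chromosome 22 and was assigned to MIRLET7BHG, the host gene of let-7 microRNAs, at a distance of -7491 bp (negative is upstream). BCOR, which encodes a corepressor of the Polycomb system, had 2429 bp with a fold of 42.8 in an intron. A peak of 2417 bp and fold 66.7 lay at -3161 bp from MIR183, a microRNA gene of a cluster known for its role in sensory organs. Farther from any start, a peak assigned to the cell cycle kinase gene WEE1 lay 26624 bp away and had the highest fold of the 12 (84.5, 1569 bp). CDKN2C, which encodes an inhibitor of cyclin-dependent kinases, was 6539 bp from a peak of 2031 bp and fold 18.9. In 3 of the 12 a coding start listed in the RefSeq promoter table lay inside the peak, so that the class rests on the annotation used. The peak assigned to SIPA1L2 at -67631 bp had its summit 0.086 kb from a RefSeq start of SIPA1L2 itself, and the one assigned to MIR6085 held a start of TLN2, the gene of the cytoskeletal protein talin 2. The peak near MIRLET7BHG held that of the uncharacterised LOC124905135. A peak assigned to DHX37 (1545 bp, fold 12.9) overlapped the tRNA genes TRD-GTC2-10 and TRA-TGC4-1. On chromosome 17, 3 further peaks overlapped pseudogenes (DND1P1, SUZ12P1, and SMURF2P1 with SMURF2P1-LRRC37BP1), with folds from 11.1 to 28.4. Pseudogenes resemble their parent genes in sequence, and whether reads were divided among copies was not tested.

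The 436 wide peaks were assigned to 435 genes, 8.29% of the 5246 genes with any peak. Of these, 393 were protein-coding, 8.42% (7.64 to 9.25) of the 4667 coding genes with a peak. Long noncoding RNA genes followed with 30 of 437 (6.86%, 4.68 to 9.66). Coding genes with a wide peak were longer in RefSeq, with a median of 59.6 kb (quartiles 18.0 to 142) against 40.5 kb (16.2 to 96.5) for coding genes with narrower peaks only. A further peak was assigned to 27.6% (23.4 to 32.0) of genes with a wide peak and to 16.1% (15.1 to 17.2) of genes without. A gene with more peaks has more chances to hold a wide one, so these shares are not free of the grouping. A peak was assigned to a gene by distance only.

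Lists of related genes were counted next, as members with a wide peak among members with any peak, against the 8.29% of all genes with a peak and their median widest peak of 555 bp. The members of a list were not compared with random genes, and the counts are descriptions. Members were counted by the gene a peak was assigned to. A wide peak over the start of a member but assigned to another gene was therefore not counted. Among ZNF and ZFP zinc finger genes, the class of ZFP64 itself, 11 of 99 had a wide peak (11.1%, 5.68 to 19.0), with a median widest peak of 609 bp. The widest were ZNF821 (2295 bp, fold 10.9), ZNF592 (2213 bp, fold 14.1) and ZFP36 (2205 bp, fold 13.3). ZFP36 encodes an mRNA decay factor with fingers of another type. Of the related ZBTB factors 1 of 18 had one, at ZBTB7A (1561 bp, fold 7.89).

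Histone-modifying enzymes held several of the wide peaks. Of KMT2 methyltransferases and their partners 5 of 10 had one (50%, 18.7 to 81.3), with a median widest peak of 1407 bp. Beside KMT2A these were SETD1B (2725 bp, fold 92.3), KMT2B (2339 bp, fold 32.5), KMT2D (1852 bp, fold 9.93) and the fusion partner and elongation factor gene AFF1 (1559 bp, fold 21.2). KMT2A, KMT2B, KMT2D and SETD1B all encode methyltransferases of histone H3 lysine 4. Of Polycomb genes 3 of 11 had a wide peak (27.3%, 6.02 to 61.0). Among them were EZH2, the H3 lysine 27 methyltransferase (2061 bp, fold 23.4), and its partner PHF19 (1786 bp, fold 28.8). Corepressor genes had 2 of 15, the intronic BCOR peak and TBL1X (2353 bp, fold 26.9), and histone demethylases 1 of 8, at KDM2A (1627 bp, fold 21.5). Wide peaks assigned to KDM7A-DT (2318 bp, fold 31.0) and PHC2-AS1 (1600 bp, fold 28.0) held the starts of KDM7A and PHC2. They were not counted for the demethylase and Polycomb lists. The KMT2 share rests on 10 genes. Among genes with a peak of fold 10 or more, 4 of 5 of this list had a wide peak, against 380 of 1681 (22.6%) of all such genes. Folds above 10 were not held equal between them.

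Hepatocyte identity genes, mostly transcription factors with a few liver products such as albumin, were the other large list in which 50% had a wide peak, 7 of 14 (23.04 to 77.0), with a median widest peak of 1318.5 bp. NR5A2, a nuclear receptor of bile acid synthesis, had 2456 bp with a fold of 23.2. The pioneer factor genes FOXA2 (2182 bp, fold 14.1) and FOXA1 (1915 bp, fold 21.1) had wide peaks beside their starts, 625 and 1096 bp away. CEBPA (1962 bp, fold 11.0), GATA4 (1803 bp, fold 10.8) and PPARA, a regulator of fatty acid oxidation (1721 bp, fold 15.5), had wide peaks too. The folds of these genes, from 10.8 to 23.2, lay near or below the median of wide peaks, 21.6. Among genes with a peak of fold 10 or more, 7 of 9 in the list had a wide peak (77.8%).

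Other factor families had small numbers of wide peaks, with intervals that include the share of all genes except for RUNX. Forkhead factors had 3 of 24 (12.5%, 2.66 to 32.4), namely FOXC1 (2470 bp, fold 14.6) with FOXA2 and FOXA1. Homeobox factors outside the HOX clusters had 3 of 22 (13.6%, 2.91 to 34.9), among them CUX1 (1976 bp, fold 89.8) and CUX2 (1556 bp, fold 16.7). RUNX1 (1792 bp, fold 41.7), a blood cell factor, and RUNX3 (1614 bp, fold 20.9) were the only RUNX genes with a peak of any kind, and both were wide. KLF, SP and EGR factors had 1 of 11, at SP9 (1874 bp, fold 19.0, 1431 bp from the start), which is not the narrower SP9 peak of fold 154. HOX genes had 0 of 3 and SOX factors 0 of 4, counts too small to tell their shares from that of all genes.

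Among signalling genes, the TGF-beta and BMP pathway had the largest number, 7 of 23 (30.4%, 13.2 to 52.9), with a median widest peak of 1127 bp. Of its ligands, BMP6 had 2157 bp with a fold of 15.2, BMP2 1762 bp with a fold of 65.5, and INHBB 1595 bp with a fold of 23.4. The receptor gene BMPR1A had 1908 bp (fold 13.1). SMAD1, a transducer of BMP signals, had 1597 bp with a fold of 58.7, and the inhibitory SMAD7 2172 bp with a fold of 24.2. SKIL, a repressor of SMAD activity, had 1510 bp (fold 7.36). The pathway thus had wide peaks at ligands, receptor, transducer and inhibitors alike.

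The Hippo pathway, which restrains growth through the coactivator YAP1, had 4 of 12 (33.3%, 9.92 to 65.1). These were the transcription factor gene TEAD3 (2347 bp, fold 87.4), YAP1 itself (2319 bp, fold 18.5), STK24, and the kinase activator gene MOB1B (1592 bp, fold 85.1). The Notch pathway had 3 of 14 (21.4%, 4.66 to 50.8), the target gene HES4 (2909 bp, fold 11.7), the ligand gene JAG1 (2150 bp, fold 11.4) and the coactivator gene MAML3 (1550 bp, fold 29.4). Wnt pathway genes had 2 of 26 (7.69%, 0.946 to 25.1), LRP5 and the ligand gene WNT5B (1606 bp, fold 15.0). Protein kinase C and D genes had 1 of 7, PRKCE (1563 bp, fold 6.07). Macrophage-directed secreted factors had 1 of 8, MDK, the growth factor midkine (1651 bp, fold 23.5). The 14-3-3 gene YWHAZ (2105 bp, fold 10.3) was 1 of 2.

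Ribosomal protein, RAB and solute carrier genes had shares near or below that of all genes, with wide intervals. No wide peak lay at 20 cytosolic ribosomal protein genes with a peak, a count of 0 that allows up to 16.8%, nor at 17 RAB GTPase genes (up to 19.5%). The median widest peak was 454 bp for the ribosomal and 492 bp for the RAB genes. Solute carriers had 8 of 99 (8.08%, 3.55 to 15.3), close to all genes, with SLC16A5 (2285 bp, fold 83.0), SLC9D1 (1906 bp, fold 9.34) and SLC15A1 (1833 bp, fold 16.4) the widest. USP deubiquitinases had 4 of 22, with USP3 (2072 bp, fold 19.5), USP36 (2010 bp, fold 61.4) and USP13 (1709 bp, fold 16.3) the widest. Cell cycle genes had 2 of 20, the peaks near WEE1 and CDKN2C outside promoters. In all, 19 of the 28 lists had a larger share than the 8.29% of all genes, and the interval lay wholly above it for the KMT2, liver, TGF-beta and BMP, Hippo and RUNX lists only. For long intergenic RNA genes it lay wholly below. The Hippo count includes STK24, which is only related to the Hippo kinases. Without STK24 it would equal the 3 of 11 of Polycomb genes, whose interval (6.02 to 61.0) includes 8.29%. Among genes with a peak of fold 10 or more, where the overall share was 22.6%, the interval stayed above it for the KMT2 (80%, 28.4 to 99.5) and liver (77.8%, 40.0 to 97.2) lists. It included that share for the TGF-beta and BMP (6 of 12, 21.1 to 78.9), Hippo (4 of 6, 22.3 to 95.7) and RUNX (2 of 2, 15.8 to 100) lists, and for long intergenic RNA genes (2 of 24, 1.03 to 26.997). Folds above 10 were not held equal in these comparisons. The lists were chosen with earlier results of these data known, so an interval above the overall share is a description and no test. The 4 of 5 in the KMT2 list include the fusion partner gene AFF1.

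**Figure D4:**
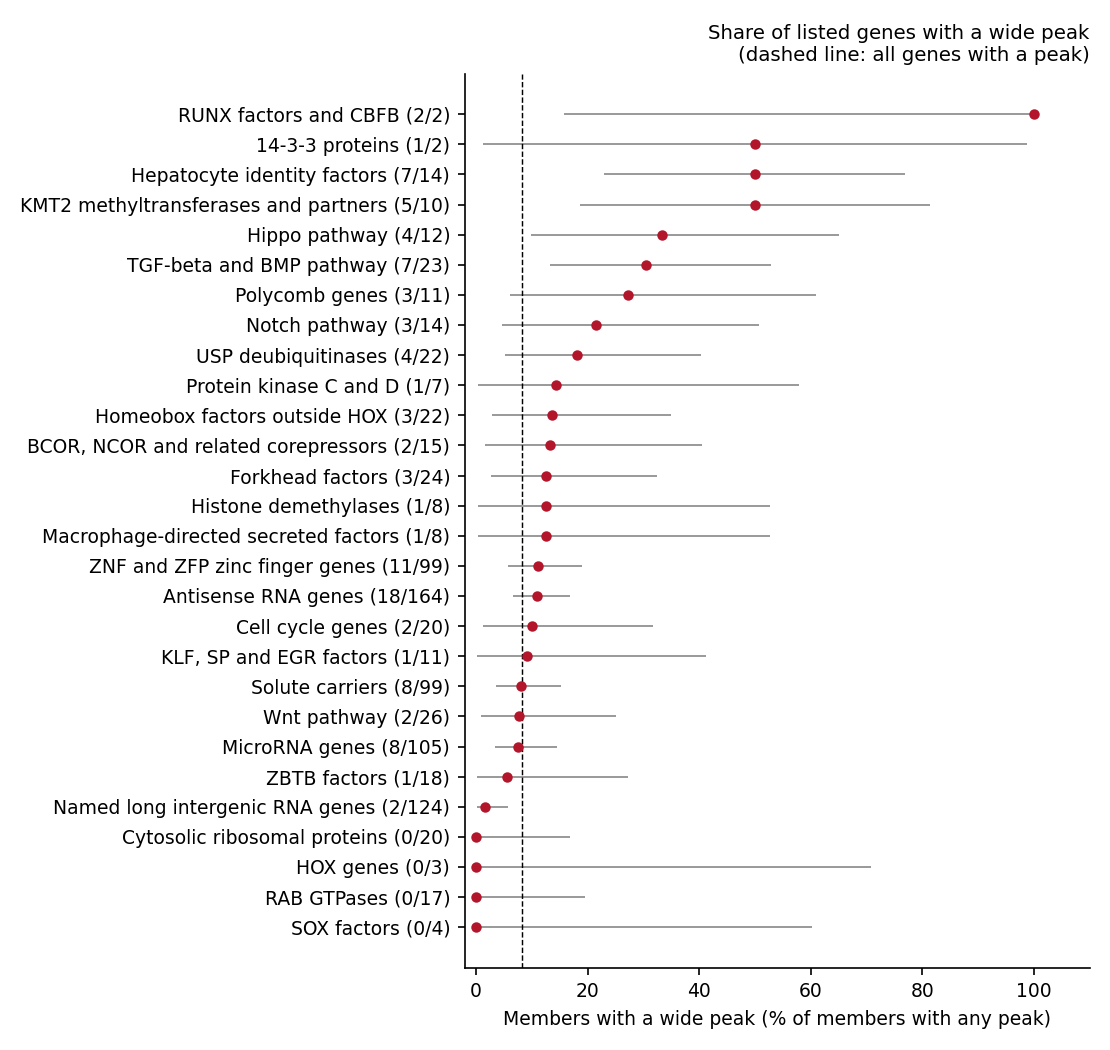
Points give the percent of list members with a wide peak among the members with any peak (counts beside each name), with exact 95% binomial intervals. The dashed line marks the 8.29% of all genes with a peak, and most intervals cross it.

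Wide peaks assigned to RNA genes covered the start of a coding gene about as often as wide peaks in general. Among the 421 wide peaks that the RefSeq table covers, 40 were assigned to genes that are not protein-coding, and 28 of them held a coding start (70%, 53.5 to 83.4), against 305 of all 421 (72.4%, 67.9 to 76.7). The peak named for MIR4466 (3349 bp, fold 35.4) held the start of ARID1B, a subunit gene of the BAF chromatin remodelling complex, and that of MIR1469 (3071 bp, fold 64.5) the start of NR2F2, a nuclear receptor gene. Antisense RNA genes had 18 of 164 (11.0%, 6.64 to 16.8), led by GATA2-AS1, THRB-AS1 (2851 bp, fold 46.6) and SAP30L-AS1 (2515 bp, fold 37.4), whose peaks also held the starts of GATA2, THRB and SAP30L. Long intergenic RNA genes, which by their naming lie apart from coding genes, had 2 of 124 (1.61%, 0.196 to 5.70), LINC01126 and LINC02109 (1616 bp, fold 10.8).

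MicroRNA genes, with their host genes, had 8 wide peaks among those with any peak (7.62%, 3.35 to 14.5). Among microRNAs with an entry in the RefSeq table, a whole hairpin lay inside the peak for 5 wide peaks. The mature RNAs of these hairpins are shown from RefSeq (GRCh38.p14, 5′ to 3′), with the seed, bases 2 to 8, in capitals.
hsa-miR-4466, chr6:156779710-156779727, - strand: gGGUGCGGgccggcgggg
hsa-miR-1469, chr15:96333261-96333282, + strand: cUCGGCGCggggcgcgggcucc
hsa-miR-718, chrX:154019928-154019948, - strand: cUUCCGCCccgccgggcgucg
hsa-miR-9899, chr2:149330300-149330321, - strand: cGGGCGCCgcgcucccgcccgc
hsa-miR-193a-5p, chr17:31560016-31560037, + strand: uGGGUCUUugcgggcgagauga
hsa-miR-193a-3p, chr17:31560050-31560071, + strand: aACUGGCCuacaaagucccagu
The 6 mature RNAs had 6 different seeds, so no seed was shared. MIR718 lay in a peak of 2229 bp (fold 15.9) over the start of IRAK1, MIR9899 in a peak of 2145 bp (fold 31.9) assigned to LYPD6, and MIR193A in a peak of 1701 bp (fold 10.4).

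Promoter sequence was a property that the width rule had not used. A RefSeq promoter was found for 314 of the 387 coding genes with a wide promoter peak, 13 of the 387 being on chromosome 8. Their promoters held a median of 34 CpG dinucleotides in 300 bases (quartiles 23 to 42), against 30 (21 to 38) for the 3020 genes with narrower promoter peaks only and 19 (6 to 29) for the 12478 without a promoter peak. The median stayed at 30 (21 to 37) for the 895 narrower genes with a fold of at least 10. The median G and C content was 72.5%, 68.7%, 69.0% and 61.0% in wide, narrower, narrower of fold at least 10, and no promoter peak. Among wide genes 58.0% (52.3 to 63.5) had more CpG dinucleotides than the median narrower gene, and the quartile ranges of both overlapped broadly. These windows lie at the outermost RefSeq start of each gene, which need not be under the peak. With the start nearest to the summit the 58.0% became 64.6% (59.1 to 69.9). Genes are not replicates, and no test was made.

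**Figure D5:**
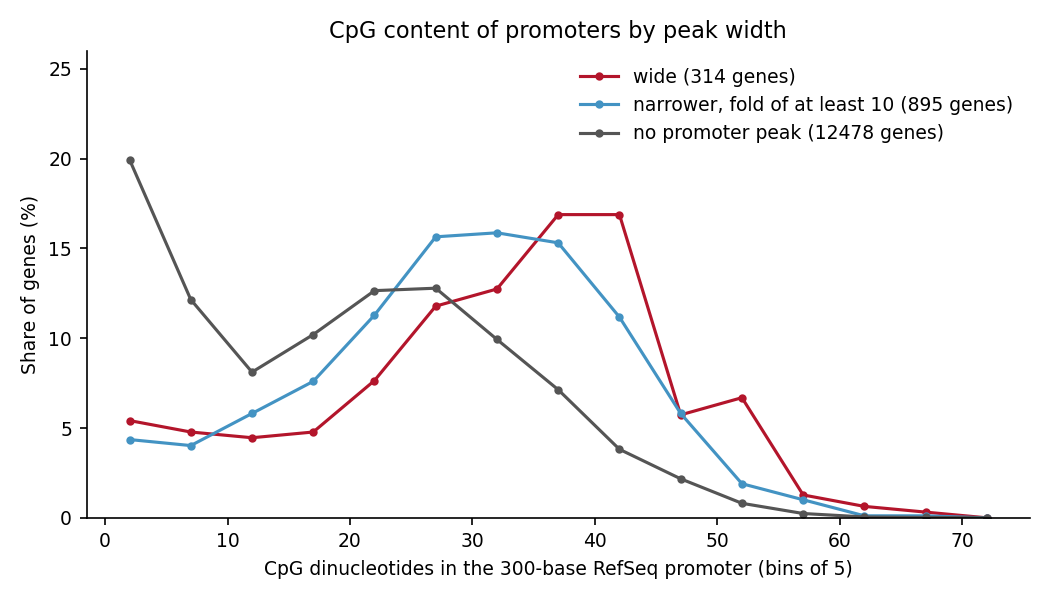
Lines give the share of coding genes in percent by the number of CpG dinucleotides in their 300-base RefSeq promoter, in bins of 5. Promoters of the 314 genes with a wide peak (red) are more frequent between 35 and 44 dinucleotides than those of the 895 genes with a narrower peak of fold at least 10 (blue), while the 12478 genes without a promoter peak (dark grey) are most frequent in the lowest bin.

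Short motifs were searched on both strands of the same promoters. The GC box GGGCGG was present in 76.1% of wide genes (71.0 to 80.7), 75.4% of narrower genes (73.8 to 76.9) and 58.3% of all 15812 promoters. The ETS-type motif CCGGAA was found in 19.1% of wide (14.9 to 23.9), 25.7% of narrower (24.1 to 27.3) and 22.7% of all promoters. CCAAT was found in 26.8% of wide (21.9 to 32.0), 32.3% of narrower (30.6 to 34.0) and 36.4% of all promoters. TATAAA was found in 5.73% of wide, 5.17% of narrower and 9.75% of all promoters. ACTACA, part of a ZNF143 motif, was found in 4.78% of wide (2.70 to 7.76), 8.48% of narrower (7.51 to 9.53) and 8.51% of all promoters. CACGTG, the E-box, was found in 6.37% of wide (3.93 to 9.67), 9.70% of narrower (8.67 to 10.8) and 8.82% of all promoters. Among narrower genes with a fold of at least 10, the shares were 74.3% for GGGCGG, 24.4% (21.6 to 27.3) for CCGGAA, 30.9% (27.9 to 34.1) for CCAAT, 5.03% for TATAAA, 7.82% (6.15 to 9.78) for ACTACA and 9.497% (7.66 to 11.6) for CACGTG. For all of these motifs that interval overlapped the one of wide genes. None of these motifs contains another, but matches of different motifs can share bases, and GC content was not held equal. A match is a description of the letters in this window only.

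Wide peaks were found on all 23 chromosomes with peaks. Their share of the peaks ran from 12.3% on chromosome 21 (10 of 81, 6.08 to 21.5) and 12.2% on chromosome 13 (14 of 115, 6.82 to 19.6) to 3.91% on chromosome 20 (7 of 179, 1.59 to 7.89) and 3.23% on chromosome 16 (9 of 279, 1.49 to 6.04). Only the interval of chromosome 16 left out the 6.84% of the whole list, and the median fold on that chromosome was 7.07, above the 6.56 of all peaks.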

How the data were processed

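Flag ChIP and input chromatin from ZFP64-overexpressing PLC/PRF/5 cells were sequenced, 1 library each. Per the submitters' processing notes, which give no roles, the tools were MACS2 2.2.7.1, deepTools 3.5.0, Bowtie2 2.4.1 and SAMtools, and the build was hg38. The authors deposited for each peak a fold (the ratio at the summit between ChIP and background), a p-value and a q-value, and, per the file headers, width, class, nearest gene and distance to its start. What tool made the annotation, and how duplicate reads were treated, was not given in the sources used here. Total read counts were not used here.

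Here peaks of at least 1500 bp were set against narrower ones with Python 3.11.15, pandas 2.3.3 and scipy 1.17.1. Shares have Clopper-Pearson and counts exact Poisson 95% intervals. With 1 library per group there was no test between groups. Fragments were solved from fold and p-value under a Poisson model with a pseudocount of 1, an inference that gave whole numbers within 0.001 on the −log10 p scale for 6289 of 6373 peaks. It was tested on simulated data. Genes were matched to RefSeq by identifier (5231 of 5246). The members, lists and motifs were chosen with earlier results of these data known. Named were the 10 widest and 10 highest wide peaks, those outside promoters, those at the threshold, the 3 lowest, genes with 2 wide peaks, up to 3 genes per list, the genes of the series title, and the 3 highest narrower peaks. Of the KMT2, TGF-beta and Hippo lists all members with a wide peak are named, and of the liver list more than 3, chosen after their values were seen. A few genes that the rule names are counted but not reported here. Alternatives were widths of 1000 and 2000 bp, a −log10 q of at least 10, a fold of at least 10, and other distances to starts.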

Additional observations from a re-analysis of the deposited data

How the results depend on the processing

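Of 42 alternative values over 10 results, 28 stayed within the interval (or, for counts, within 1.5 times) of the value reported and 14 moved. The promoter, intron and distal intergenic shares stayed within their intervals in every alternative run, the promoter share between 95.9% and 97.2%. Widths from 1000 bp gave 1104 genes, a median fold of 15.4, 72.4% with a fold of at least 10, 87.8% over a start and a median summit distance of 385 bp. Widths from 2000 bp gave 147 genes, a median fold of 27.6, 91.8% with a fold of at least 10 and a summit distance of 593 bp. With only folds of 10 or more kept, the median fold was 24.3 and, by construction, 100% had such a fold. Summits within 250 bp of the start, in place of overlap, gave 24.5%, and within 1000 bp 82.8%. With the RefSeq start nearest to the summit in place of the outermost, 64.6% of wide genes had more CpG dinucleotides than the median narrower gene. This start, the window of 1000 bp and leaving out chromosome 8 were chosen after seeing the data. Of 83 values for lists, 63 stayed within their interval. The cause of these moves was not tested. No paired analysis was possible because there was only 1 library of each kind. Low fragment numbers limit the wide peaks of low fold, such as GATA2-AS1 (20).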

Other observations

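Some wide peaks spanned the starts of more than 1 coding gene. Outside chromosome 8, 24 of 421 wide peaks (5.70%, 3.69 to 8.36) held the starts of at least 2 coding genes listed in the RefSeq table. The share was 1.63% (1.32 to 2.0) of narrower peaks and 2.58% (1.79 to 3.59) of those with a fold of at least 10. Longer peaks reach more starts by their length alone, and the table lacks some coding genes. The widest of these, 2897 bp with a fold of 33.8, covered the starts of MGAT4B, which encodes a glycosyltransferase, and SQSTM1, the autophagy receptor gene. A peak of 2713 bp (fold 102) covered the starts of BIVM and POGLUT2. The peak at CMPK2 (1683 bp, fold 91.6) also covered RSAD2, the gene of the antiviral protein viperin.

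Words in the deposited gene names gave a view beyond the lists. Genes named with homeobox had a wide peak in 9 of 47 (19.1%, 9.15 to 33.3), among them MNX1, LBX1 and HHEX. Those named with nuclear receptor had 4 of 21 (19.0%, 5.45 to 41.9), NR5A2, NRIP1, NCOA2 and NCOA7. Those named with mitochondrial had 1 of 49 (2.04%, 0.0517 to 10.9), the pyruvate carrier gene MPC1. Genes named with kinase had 28 of 271 (10.3%, 6.98 to 14.6), near the 8.29% of all genes. These words were chosen after the lists, and no test was made.

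Of all 2080 possible 6-base words counted on both strands of the promoters, CGCGCG differed the most, present in 45.5% of wide genes, 33.2% of narrower genes and 32.7% of narrower genes with a fold of at least 10. CTGGGA differed the most in the other direction, with 26.8% of wide genes, 34.9% of narrower genes and 34.5% of narrower genes with a fold of at least 10. These words were picked by their difference and get no test.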
